A study of Mus musculus with 6 samples.

Results

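The genes described here are 10 markers of the stem cells of the mouse hair follicle, namely Krt15, Lgr5, Lgr6, Cd34, Sox9, Nfatc1, Lrig1, Plet1, Tbx1 and Krt24. A gene was represented by the array row whose only annotated symbol was its own, and by the row of highest mean where it had several. All 10 were found among 20255 genes, and all 10 lay above the filter that removed the lowest 25% of genes by mean level, which left 15191 genes for testing. Levels came from Affymetrix exon arrays, whose probes are spread over the exons of a gene, and are given in log2 units per transcript cluster, the array's unit for a gene. Whole-skin biopsies of wound scars were taken from mice with high or low regeneration of hair follicles in the scar, with 1 scar of each kind at days 4, 6 and 9 after wound closure, so that 3 high-regeneration and 3 low-regeneration scars were compared. Per the design text the low group had no new follicles, whereas its sample labels read low. The labels give no strain, age, sex or treatment, nor whether an animal gave more than 1 sample.

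The hair follicle keeps its stem cells in a niche called the bulge, below the opening of the sebaceous gland, with further pools of long-lived cells in the hair germ under the bulge and in the isthmus above it. Bulge and germ cells feed each cycle of hair growth, while cells of the isthmus and junctional zone maintain the upper follicle and sebaceous gland. In large wounds of mouse skin, new follicles can form in the scar after the epidermis has closed, and they set up a bulge of their own as they mature. None of the 10 genes is specific to these cells. Cd34 is also made by endothelial cells, dermal fibroblasts and mast cells, Krt15 by basal keratinocytes, and Sox9 by the outer root sheath. In whole tissue, fewer cells of a type and less RNA per cell cannot be told apart.

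Array medians lay between 6.04 and 6.10 log2 units. Markers that define skin were high in every scar, with Krt5 between 12.89 and 13.12 log2 units and Col1a1 between 13.18 and 13.31. The low-regeneration scar of day 9 stood apart in its sex-linked genes. Its Xist level was 12.77 log2 units, and its levels of the Y-linked genes Kdm5d, Eif2s3y and Uty were 4.98, 4.36 and 3.88. The low-regeneration scar of day 6 had an Xist level of 7.30, against 5.75 to 5.82 in the other 4, beside levels of 7.52, 7.26 and 7.85 of these Y-linked genes. In the pair of day 9, sex and regeneration group cannot be told apart. For several markers the difference without that pair, or the slope without a scar, is given as well. The high-regeneration scar of day 4 stood apart in hair-forming genes, whose values follow with Lgr6, Krt15 and the gene lists.

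Sequence ahead of the gene start is shown for 3 of the markers, chosen for their patterns over the scars: Lgr6, which was higher in the high-regeneration scar at each day, Plet1, which was lower at each later day, and Krt24, which was highest at day 6 in each group. The window searched was the 250 bases before the start used in the RefSeq promoter table, read 5′ to 3′ on the gene's strand, in the build GRCm38.p6. For Lgr6 the last 98 bases of the window lie inside the span that RefSeq annotates for the gene, so only the 152 bases outside it are printed. RefSeq promoters were matched for 6 of the 10 genes. Capitals mark matches to 4 motifs searched on both strands. The letters were TATANA for the TATA box, GGGCGG for the GC-rich box bound by Sp1, CCAAT for the element of that name, and TGACTCA for the AP-1 site. The printed stretches lie at chr1:135105375-135105526 on the minus strand for Lgr6, at chr9:50494275-50494524 on the plus strand for Plet1, and at chr11:99285263-99285512 on the minus strand for Krt24.
Lgr6: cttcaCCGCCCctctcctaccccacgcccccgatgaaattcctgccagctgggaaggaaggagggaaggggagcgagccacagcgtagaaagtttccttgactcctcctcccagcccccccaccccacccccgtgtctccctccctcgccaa
Plet1: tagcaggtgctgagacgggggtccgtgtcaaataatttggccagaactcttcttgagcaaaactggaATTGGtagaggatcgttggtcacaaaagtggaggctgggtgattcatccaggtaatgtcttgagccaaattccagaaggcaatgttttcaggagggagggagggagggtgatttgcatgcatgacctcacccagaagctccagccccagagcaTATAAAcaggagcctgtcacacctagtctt
Krt24: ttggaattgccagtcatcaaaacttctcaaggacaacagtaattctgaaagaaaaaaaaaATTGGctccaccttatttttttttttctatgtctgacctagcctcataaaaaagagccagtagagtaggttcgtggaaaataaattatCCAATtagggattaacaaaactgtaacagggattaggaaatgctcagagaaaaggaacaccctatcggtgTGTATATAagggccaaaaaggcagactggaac

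The windows of Plet1 and Krt24 each held a TATA box match, which on the gene's strand began 30 bases before the start, with overlapping matches on the opposite strand in Krt24. The window of Lgr6 held none of these letters, and 22.3% of 32536 windows of this length held a match. Lgr6 instead held a match to the GC-rich box, found in 33% of windows, in a window of 65.2% G and C, against 50% in Plet1, 36.8% in Krt24 and a median of 52.4% over all windows. CCAAT matches, found in 33.8% of windows, lay in Plet1 and Krt24. The AP-1 letters were in none of the 3 windows and in 4.45% of all windows.

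The comparison of high with low regeneration asked which markers of follicle stem cells differed with the level of regeneration at matched days. Lgr6 and Krt15 were higher in the high-regeneration scar of all 3 pairs, Lgr5 was higher at days 6 and 9, and the other 7 genes differed in both directions. None of the 10 passed an adjusted p of 0.05 in limma, where 0.0527% of all genes tested did. At an unadjusted p under 0.05, 2 of the 10 were higher, Lgr6 and Krt15, against 4.89% of all genes, and 0 were lower, against 5.17%. Without the day term this held for Lgr6 (unadjusted p = 0.0084) and not for Krt15 (unadjusted p = 0.327). Both kept it when any 1 pair was left out. Lgr5 was also higher, and Plet1 and Tbx1 lower, at this level without the day 4 pair, and Lrig1 and Krt24 were also higher without the day 6 pair. In either direction, 1486, 1139 and 1032 of 15191 genes reached this level without the pairs of days 4, 6 and 9. Without the day term 900 did. The 2 genes that were higher in all 3 pairs compare with 15.8% of all genes, and none of the 10 was lower in all 3 pairs, against 18.3%. The median difference over the 10 genes was 0.10 log2 units, against -0.0028 over all genes tested. By day it was 0.22, -0.019 and 0.21. Leaving out the day 6 pair gave 0.25, and leaving out the day 9 pair gave 0.016.

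**Figure D1:**
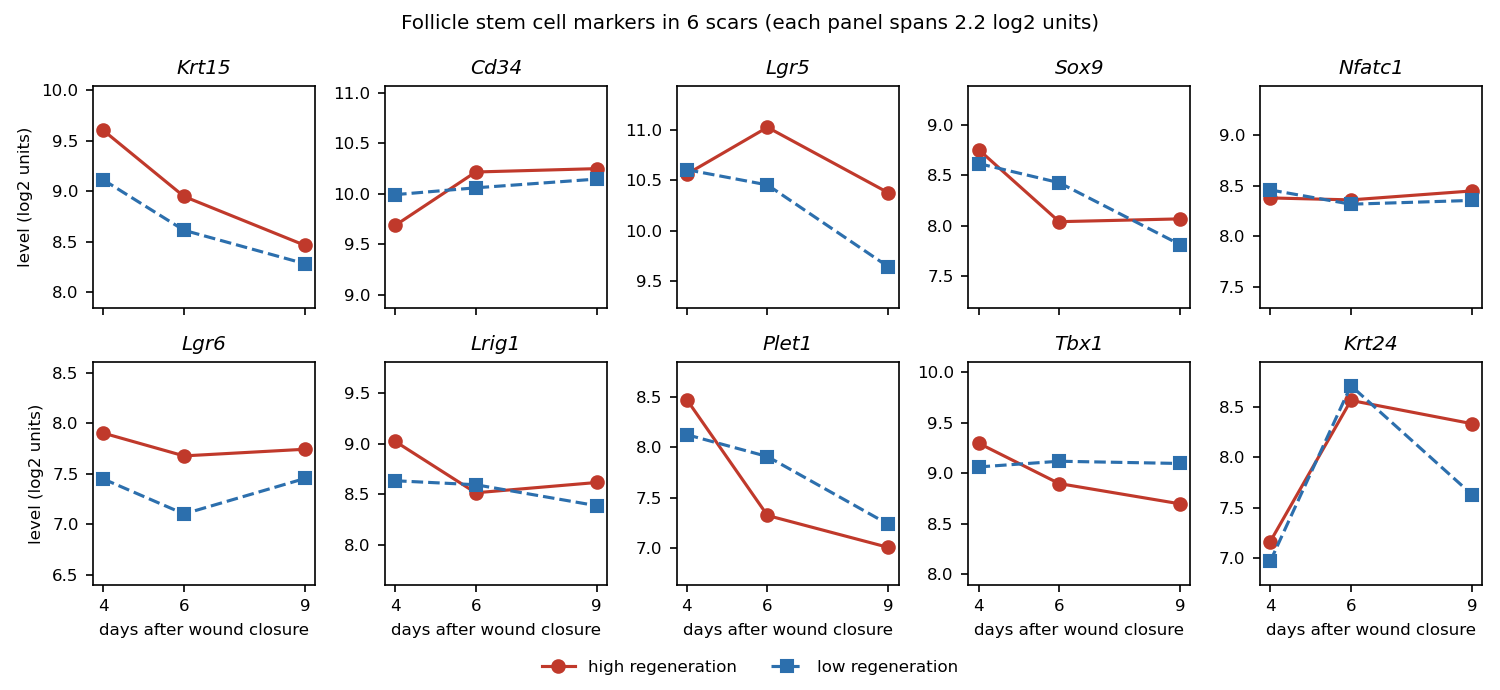
Levels of the 10 genes in log2 units (y axis) against days after wound closure (x axis), 1 point per scar, with high-regeneration scars as filled red circles and low-regeneration scars as blue squares. Lines join the scars of a group, and each panel covers the same range in log2 units. Lgr6 is the gene whose groups do not overlap, Krt15 and Plet1 are lower at each later day in both groups, and Nfatc1 is flat.

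Lgr6 encodes a receptor for R-spondins, secreted proteins that strengthen Wnt signals, and marks cells of the isthmus. Its levels stood at 7.90, 7.68 and 7.74 log2 units in the high-regeneration scars of days 4, 6 and 9, against 7.45, 7.10 and 7.45 in their low-regeneration partners. Every high-regeneration scar lay above every low-regeneration scar, which among the 10 genes held for Lgr6 alone, and 5.08% of all genes showed this. The differences were 0.45, 0.57 and 0.29 at days 4, 6 and 9, with a mean of 0.44 ± 0.14 (SD of 3 pairs, 1.36-fold). The unadjusted p was 0.00297 and the adjusted p = 0.255 in limma, so the difference did not pass over all genes. The mean was 0.37 to 0.51 when any 1 pair was left out, and 0.51 without the day 9 pair. Its 6 levels spanned 0.80 log2 units. Genes of the differentiated hair also differed between the scars of these pairs. The inner root sheath list had median differences of 2.28, 0.10 and 2.19 in the pairs of days 4, 6 and 9. Those of the hair shaft list were 2.41, 0.19 and 0.96. At day 6, where those lists differed least, the difference of Lgr6 was the widest of its 3. The part of hair-forming cells in the differences of Lgr6 and Krt15 was not tested.

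Krt15 encodes a type I keratin of bulge cells and basal keratinocytes. Its levels were 9.60, 8.95 and 8.47 in the high-regeneration scars of days 4, 6 and 9, against 9.11, 8.62 and 8.28 in their low-regeneration partners. The high-regeneration scar was above the low at each day, but the groups overlapped because both were lower at later days. The difference was 0.49, 0.34 and 0.18 at days 4, 6 and 9, with a mean of 0.34 ± 0.15 (SD of 3 pairs, 1.26-fold, adjusted p = 0.364). Without the day 9 pair the mean was 0.41, and without the day 4 pair 0.26. At day 6, where the hair lists differed least, Krt15 differed by 0.34, a value from 1 pair. The part of hair-forming cells in it was not tested.

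Lgr5, the paralog of Lgr6 and likewise an R-spondin receptor, marks the lower bulge and hair germ. Its levels were 10.56, 11.03 and 10.38 in the high-regeneration scars of days 4, 6 and 9, against 10.61, 10.45 and 9.64 in their low-regeneration partners. The scars of day 4 were nearly level, at a difference of -0.044, while the high-regeneration scar was above its partner by 0.57 at day 6 and by 0.73 at day 9. The mean difference of 0.42 ± 0.41 was about the size of its SD over 3 pairs (adjusted p = 0.498). It was 0.65 without the day 4 pair and 0.26 without the day 9 pair, where the low-regeneration scar had the lowest level of the 6. Lgr5 and Lgr6 thus had mean differences of like size, but the pairs of Lgr5 spread more widely.

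Cd34, a surface glycoprotein of mouse bulge cells, had levels of 9.69, 10.22 and 10.25 in the high-regeneration scars of days 4, 6 and 9, against 9.99, 10.06 and 10.15 in their low-regeneration partners. The high-regeneration scar was below the low at day 4 and above it at days 6 and 9, and the mean difference was -0.015 ± 0.25 (SD of 3 pairs, adjusted p = 0.975). Sox9, a transcription factor needed to form and keep bulge stem cells, had levels of 8.75, 8.04 and 8.07 in the high-regeneration scars, against 8.62, 8.43 and 7.81 in the low. Its pairs differed by 0.14, -0.39 and 0.26, and the mean was 0.0026 ± 0.34 (adjusted p = 0.997). Without the day 9 pair the mean of Sox9 was -0.12. Nfatc1, a transcription factor that holds bulge cells at rest, was the flattest of the 10. Its levels were 8.38, 8.36 and 8.45 in the high-regeneration scars, against 8.46, 8.32 and 8.36 in the low, a span of 0.14 log2 units over all 6 (difference 0.019 ± 0.089, adjusted p = 0.946). That difference was -0.018 without the day 9 pair.

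Tbx1, a transcription factor reported to sustain renewal of bulge cells, had levels of 9.30, 8.90 and 8.70 in the high-regeneration scars of days 4, 6 and 9, against 9.06, 9.12 and 9.10 in their low-regeneration partners. The high-regeneration scar was above the low at day 4, and the differences at days 6 and 9 were -0.22 and -0.40. The mean difference was -0.13 ± 0.33 (SD of 3 pairs, adjusted p = 0.779), and it was 0.0073 without the day 9 pair. A dimmer array row of Tbx1 differed by 0.32, -0.21 and -0.16 at days 4, 6 and 9, the same signs, with a mean of -0.016. Krt24, a type I keratin reported as a bulge marker, had levels of 7.17, 8.56 and 8.33 in the high-regeneration scars, against 6.97, 8.71 and 7.63 in the low. Its pairs differed by 0.20, -0.15 and 0.70 (mean 0.25 ± 0.43, adjusted p = 0.663), and without the day 9 pair the mean was 0.025.

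Lrig1 and Plet1 mark the junctional zone and isthmus. Lrig1, an inhibitor of the EGF receptor, had levels of 9.02, 8.51 and 8.62 in the high-regeneration scars of days 4, 6 and 9, against 8.63, 8.59 and 8.39 in their low-regeneration partners. The high-regeneration scar was above the low at days 4 and 9 and about level with it at day 6, with a mean difference of 0.18 ± 0.24 (SD of 3 pairs, adjusted p = 0.621). Plet1, a surface glycoprotein, had levels of 8.47, 7.32 and 7.01 in the high-regeneration scars, against 8.12, 7.91 and 7.24 in the low. The high-regeneration scar was above the low by 0.35 at day 4, and the differences at days 6 and 9 were -0.58 and -0.23 (mean -0.15 ± 0.47, adjusted p = 0.811). The isthmus markers Lgr6 and Plet1 therefore differed in sign at days 6 and 9, a contrast that was not tested.

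**Figure D2:**
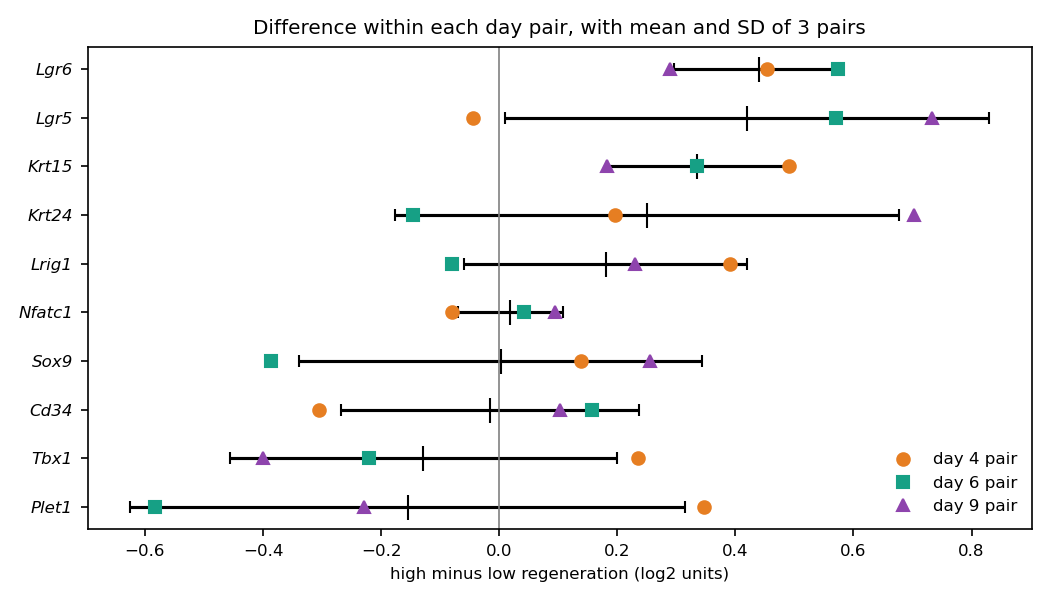
Difference between the high-regeneration and the low-regeneration scar of each day pair in log2 units (x axis) for each of the 10 genes (y axis). Symbols are single pairs, vertical ticks the mean and bars the SD of 3 pairs. All 3 pairs lie above 0 for Lgr6 and Krt15, and pairs lie on both sides of 0 for the other 8 genes.

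The next comparison asked how the markers varied over days 4, 6 and 9, as a slope per day with the regeneration group as a covariate. Plet1, Krt15 and Sox9 had the steepest negative slopes, at -0.23 ± 0.046, -0.19 ± 0.026 and -0.15 ± 0.035 log2 units per day (SE, limma), and their adjusted p were 0.180, 0.122 and 0.204. None of the 10 genes passed the adjusted p of 0.05, and 0% of all genes did. At an unadjusted p under 0.05 these 3 were lower, against 9.24% of all genes tested, and none of the 10 was higher, against 6.94%. Without the high-regeneration scar of day 6 all 3 passed, Krt15 with an adjusted p = 0.0457, Plet1 with an adjusted p = 0.0474 and Sox9 with an adjusted p = 0.0474, in a fit that called 0.75% of all genes lower. Their slopes in that fit were -0.19, -0.24 and -0.15. The slope treated scars of the same date as independent, and time after closure cannot be told apart from date.

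Day 9 was below day 4 in both groups for 5 of the 10 genes, against 34.9% of all genes tested, and above it in both for 2, against 28.8%. Krt15 and Plet1 were lower at each later day in both groups, which held for 7.76% of all genes. Krt15 at day 9 differed from day 4 by -1.14 in the high group and by -0.83 in the low. Plet1 differed by -1.46 in the high group and by -0.89 in the low. Sox9 differed by -0.69 in the high group and -0.80 in the low, but in the high group the whole difference was present by day 6. Lgr5 differed by -0.19 in the high group and by -0.96 in the low (slope -0.12 ± 0.051, adjusted p = 0.313). Its slope was -0.055 without the low-regeneration scar of day 9 and -0.20 without the high-regeneration scar of day 4. Lrig1 had a slope of -0.062 ± 0.028 (adjusted p = 0.336) and Tbx1 of -0.055 ± 0.031 (adjusted p = 0.411), and without the high-regeneration scar of day 4 these were -0.029 and -0.013. Without the low-regeneration scar of day 9 the slope of Tbx1 was -0.096, and those of Plet1, Krt15 and Sox9 were -0.25, -0.23 and -0.12, with an unadjusted p of 0.052 for Sox9. Lgr6 (-0.0088 ± 0.030) and Nfatc1 (-0.0015 ± 0.018) were near 0.

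Cd34 and Krt24 were the genes whose levels were above day 4 at day 9 in both groups. Cd34 had a slope of 0.068 ± 0.029 log2 units per day (SE, adjusted p = 0.323), with day 9 above day 4 by 0.56 in the high group and 0.15 in the low. Without the high-regeneration scar of day 4, the lowest of the 6, its slope was 0.026. Krt24 had the widest span of the 10, 1.74 log2 units. Both groups had their highest level at day 6, and the scars of day 9 lay below those of day 6, so a straight line describes it poorly (slope 0.15 ± 0.12, adjusted p = 0.544). That slope was 0.049 without the high-regeneration scar of day 4 and 0.30 without the low-regeneration scar of day 9.

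**Figure D3:**
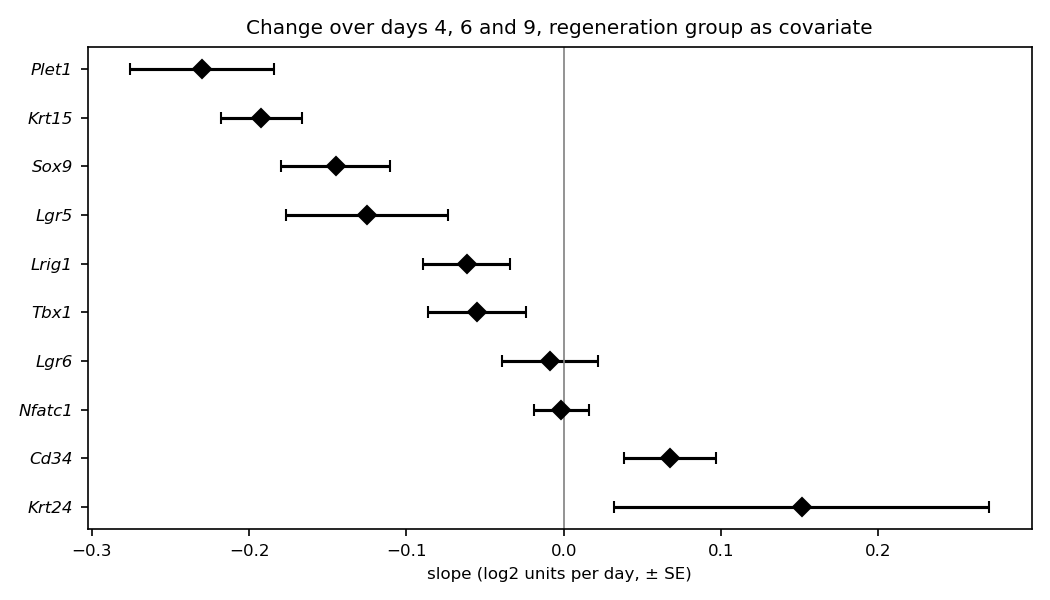
Slope over days 4, 6 and 9 in log2 units per day (x axis, bars are the SE) for each of the 10 genes (y axis), from the fit with the regeneration group as a covariate. The slopes run from -0.23 for Plet1 to 0.15 for Krt24, and none passed over all genes.

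The slope was compared between the groups through their interaction. None of the 10 genes passed over all genes, and 0% of all genes did. Tbx1 was the gene of the 10 with an unadjusted p under 0.05 (0.0298), against 3.96% of all genes in either direction. Its slope was lower in the high group, with an interaction of -0.12 ± 0.040 log2 units per day (SE, adjusted p = 0.989). With the mean of its array rows the interaction was -0.10, at an unadjusted p of 0.081. Its day 9 level differed from day 4 by -0.60 in the high group and by 0.034 in the low. The low-regeneration scar of day 9 also stood apart in sex-linked genes, and the interaction was not fitted with a scar left out. Lgr5 had an interaction of 0.15 ± 0.092 and Cd34 of 0.074 ± 0.055, each with an adjusted p of 0.989.

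The levels of 4 genes spanned at least 1 log2 unit over the 6 scars, namely Krt24, Plet1, Lgr5 and Krt15, against 5.22% of all genes. For each of these the 3 genes of most similar profile were found by the root mean square difference of levels over the 6 scars, after each gene was centred on its mean. Such matches come from a search over 15191 genes with only 6 values each. Plet1 had the closest ones, with Cyp1a1, a cytochrome P450 enzyme, at 0.059 log2 units, Coch at 0.060 and Glb1l2 at 0.072. Krt15 was nearest to Tlcd4 at 0.10, 6430604M11Rik at 0.12 and Adig, an adipocyte gene, at 0.12. Lgr5 was nearest to Gm5093 at 0.12, Pf4, a chemokine of platelets, at 0.13 and Plppr1 at 0.13. Krt24 had no match as close, with Wnt2, a Wnt ligand, at 0.21, 2310043M15Rik at 0.27 and Klrb1f at 0.34.

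Other genes of the bulge and hair germ were measured through a list of 16, of which 15 had a row above the filter. None passed over all genes in either comparison. The median difference between high and low was 0.11 log2 units, and 0.011 without the day 4 pair. The mean difference was above 0 for 10 genes and below 0 for 5, and 3 were higher in all 3 pairs and 0 lower, against 15.8% and 18.3% of all genes. Gli1, a target of hedgehog signalling present in part of the bulge and in the germ, differed by 0.39 ± 0.15 (SD of 3 pairs, adjusted p = 0.318), with day pairs of 0.42, 0.23 and 0.52. Npnt, a matrix protein that bulge cells deposit, differed by 0.28 ± 0.23 (adjusted p = 0.487), and Lhx2, a transcription factor of the bulge, by 0.31 ± 0.40 (adjusted p = 0.580), with a day 6 pair of -0.075. Runx1, a transcription factor that promotes activation of bulge stem cells, differed by -0.13 ± 0.13 (adjusted p = 0.612). Over days, 6 of the 15 had negative slopes at an unadjusted p under 0.05 and 0 had positive ones, against 9.24% and 6.94% of all genes. Foxc1, a transcription factor of resting bulge cells, had the steepest of these, at -0.19 ± 0.050 per day (SE, adjusted p = 0.215). Fst, an inhibitor of activins and BMPs, had -0.14 ± 0.032 and Barx2 -0.096 ± 0.021.

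Among 14 paralogs and pathway partners of the markers, 5 were higher and 2 lower in all 3 pairs, against 15.8% and 18.3% of all genes, and none passed. Lgr4, the third receptor of the R-spondin family, had levels of 8.09, 7.30 and 7.85 in the high-regeneration scars of days 4, 6 and 9, against 7.78, 7.55 and 7.86 in their low-regeneration partners, so its groups overlapped where those of Lgr6 did not. The ligand gene Rspo1 was higher in the high-regeneration scar of all 3 pairs, by 0.22, 0.29 and 0.14 (mean 0.21 ± 0.075, SD of 3 pairs, adjusted p = 0.429). Rspo3 differed by 0.50, 0.17 and 0.0052. Znrf3, a Wnt-induced enzyme that removes Wnt receptors and is held back by R-spondins, had a slope of 0.097 ± 0.033 per day (SE, adjusted p = 0.265). Lrig2 was lower in all 3 pairs, by a mean of -0.15 ± 0.076, while Lrig1 had a positive mean.

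Other type I keratins were set beside Krt15 and Krt24, since these genes lie in one cluster and resemble each other in sequence, and sharing of probe signal between them was not tested. Of 9 such keratins, 5 were higher in all 3 pairs and 0 lower, against 15.8% and 18.3% of all genes, and none passed. Their median difference was 0.17, and 0.11 without the day 4 pair. Krt16, a keratin of wounded epidermis, had the widest pairs, at 1.13, -1.56 and -0.55. Krt20 differed by 0.48 ± 0.31 (SD of 3 pairs) with an adjusted p of 0.393, and Krt23 by 0.30 ± 0.18 with an adjusted p of 0.422. Krt14, the main type I keratin of basal cells, differed by 0.30, -0.14 and -0.19 at days 4, 6 and 9, a pattern unlike that of Krt15. The 9 basal keratinocyte genes had a median difference of 0.0055 (-0.061 to 0.082 when any 1 pair was left out), of which 2 were higher and 1 lower in all 3 pairs. Their median levels, relative to each gene's mean, lay between -0.06 and 0.13 in the high-regeneration scars, against -0.08 to 0.03 in the low.

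The lower levels of Plet1 and Krt15 at later days were set beside genes of the upper follicle. Of 7 such genes 6 were measured, and day 9 was below day 4 in both groups for all 6, against 34.9% of all genes. At an unadjusted p under 0.05, 5 of the 6 had negative slopes, against 9.24% of all genes, and none passed over all genes. Krt79, a keratin of the follicle's upper canal, had a slope of -0.25 ± 0.048 per day (SE, adjusted p = 0.177). Krt17 had a slope of -0.20 ± 0.033 (adjusted p = 0.165) and Gata6, a transcription factor of the sebaceous duct and upper canal, of -0.11 ± 0.023 (adjusted p = 0.183). Krt79 also had the signs of Plet1 within the pairs, with differences of 0.58, -0.38 and -0.14 at days 4, 6 and 9. These signs were not particular to the upper follicle. The median differences of the basal keratinocyte list were 0.18, -0.066 and -0.014. Cst6 differed by -0.070, -0.70 and -0.50, and Sostdc1 by 0.41, 0.11 and 0.60.

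**Figure D4:**
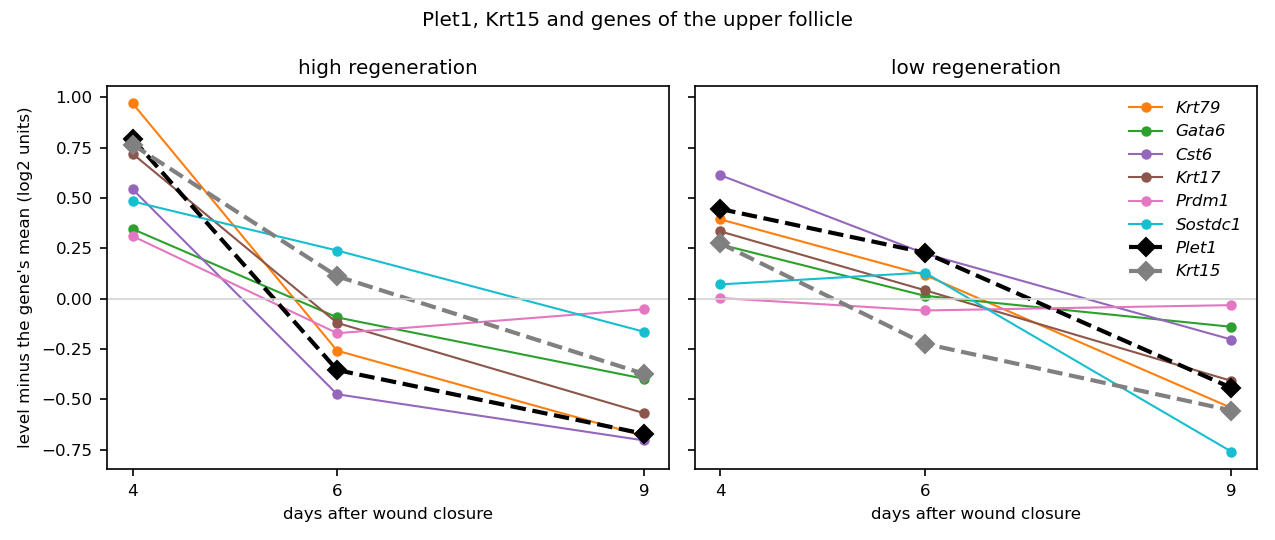
Levels of Plet1 and Krt15 (dashed lines) and of the 6 measured genes of the upper follicle (solid lines), in log2 units relative to each gene's mean over the 6 scars (y axis), against days after wound closure (x axis). The left panel holds the high-regeneration and the right panel the low-regeneration scars, 1 scar per day, and every line ends below its day 4 value.

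Markers of the sebaceous gland, the differentiated hair and pigment cells varied over the same scars. All 9 measured sebocyte genes were below day 4 at day 9 in both groups, against 34.9% of all genes, and the median of their slopes was -0.23 per day. Fa2h, an enzyme that hydroxylates fatty acids, had the lowest p of these, with a slope of -0.45 ± 0.038 log2 units per day (SE, adjusted p = 0.100). Relative to each gene's mean, the inner root sheath list had medians of 2.32, -0.28 and 0.20 in the high-regeneration scars of days 4, 6 and 9, and of 0.05, -0.37 and -2.11 in the low-regeneration scars. The hair shaft list, with 8 of 13 genes measured, had 2.39, -0.15 and -0.15 in the high, against 0.03, -0.29 and -1.40 in the low. The stem cell markers had 0.31, 0.043 and -0.040 in the high, against 0.053, 0.0058 and -0.25 in the low. The high-regeneration scar of day 4 was thus highest and the low-regeneration scar of day 9 lowest in all 3 lists. The melanocyte list had 4 genes above the filter, and 4 were higher in all 3 pairs, against 15.8% of all genes. Their median difference was 0.49, and 0.31 without the day 4 pair. Tyr, a listed gene below the filter, differed by 1.09, 0.008 and -0.13 at days 4, 6 and 9. The part of these cell types in the marker differences and slopes was not tested.

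**Figure D5:**
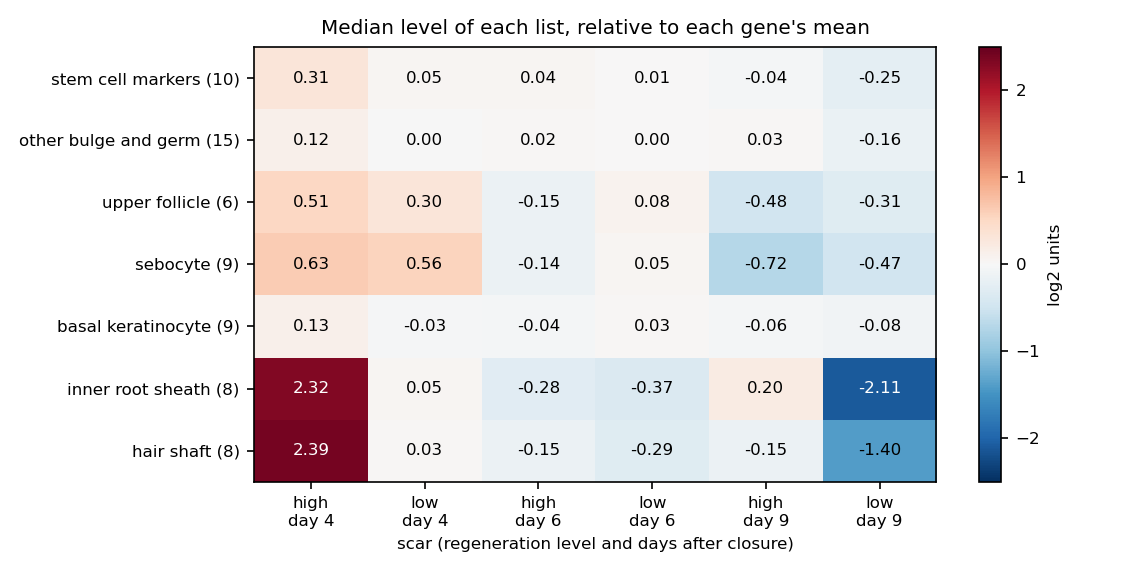
Median level of each gene list relative to each gene's mean over the 6 scars, in log2 units (colour and printed value), for each scar (columns) and list (rows, with the number of genes in parentheses). The stem cell markers run from 0.31 to -0.25, and the inner root sheath genes from 2.32 to -2.11, with the same scars at the extremes.

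The high-regeneration scar of day 4 held the highest level of 6 of the 10 markers, where 24% of all genes were highest in it, and the low-regeneration scar of day 9 held the lowest level of 4, against 20.9% of all genes. Skeletal muscle genes were also higher in that day 4 scar, with a pair median of 0.65, against 0.12 and 0.065 at days 6 and 9. Cell types that share Cd34 with the bulge were set beside it. Of 10 endothelial genes, 8 were above day 4 at day 9 in both groups, as Cd34 was, against 28.8% of all genes. Their median slope was 0.034 per day, and Emcn, an endothelial sialomucin, had a slope of 0.090 ± 0.018 (SE, adjusted p = 0.181). The fibroblast list had 4 of 8 genes above day 4 at day 9 in both groups, with a median slope of 0.016. The mast cell list had 0 of 6, with a median slope of -0.045. Within the pairs of days 4, 6 and 9, Cd34 differed by -0.31, 0.16 and 0.10. The endothelial list had median differences of -0.0032, -0.099 and -0.092, unlike Cd34 in sign at days 6 and 9. Those of the fibroblast list were -0.076, 0.0077 and 0.076, and those of the mast cell list -0.10, 0.31 and 0.026. The part of these cell types in the level of Cd34 was not tested. T cell genes, among the cells that use Nfatc1, had a median difference of -0.37 over 5 genes, while Nfatc1 itself differed by 0.019. That median was -0.58 without the day 6 pair and -0.25 without the day 9 pair. Cd3d, a T cell gene below the filter, was higher in all 3 pairs, by 0.42, 0.24 and 1.25.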

How the data were processed

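Whole-skin scar biopsies (6 samples) were measured on Affymetrix exon arrays. The authors deposited log2 levels in a table of 53145 rows, a unit read from their range, and PLIER and Affymetrix Expression Console were used per the submitters' processing notes. Versions, filters, background correction and genome build are not stated there or in the labels. Array medians differed by 0.055 log2 units, so no further normalization was applied. The platform annotation gave 25466 rows 1 symbol, 2299 several and 25380 none; only the first kind was used, with the highest-mean row per gene. Genes below the lowest 25% by mean level (5.60 log2 units) were left out.

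For high against low scars, limma 3.58.1 was run under R 4.3.3 (lmFit, eBayes, two-sided, Benjamini-Hochberg over 15191 genes), with day as a factor, which left 2 residual degrees of freedom. The slope per day had the group as a covariate (3 degrees of freedom), and the interaction left 2. The day factor rests on the design text, in which scars of a pair share a date. Same-day scars deviated together from their group means with correlations of 0.5, 0.112 and 0.56 at days 4, 6 and 9, across genes. Scars of different days gave 0.141 (high of day 4, low of day 6) and 0.112 (high of day 6, low of day 9), so the day 6 scars were no closer than these. The other values between days ran from -0.491 to -0.242. Deviations cancel out within each group, so values between days depend on the same-day ones. The fits were tested on simulated data with independent noise, no effect of date and changes larger than those of the markers. The p-values reflect only how these samples vary, which may be technical, and the number of arrays limits the precision. The members, lists and named genes were chosen with earlier results of these data known. The rule named the 10 markers, the 3 nearest genes of each marker spanning at least 1 log2 unit, and up to 4 genes of lowest p from each list, with others where a comparison with a paralog or neighbour turned on them. Alternatives were no day term, quantile normalization, no filter, the mean of a gene's rows, and leaving out each pair or sample. Sequences came from RefSeq.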

Additional observations from a re-analysis of the deposited data

How the results depend on the processing

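None of the 10 markers passed over all genes in any alternative, except Krt15, Plet1 and Sox9, whose slopes passed without the high-regeneration scar of day 6. The count of all genes that differed between high and low was 8, and it was 0 after quantile normalization (1515 at an unadjusted p under 0.05), 0 without the filter on dim genes (1798), 11 with the mean of a gene's rows and 0 to 35 when a pair was left out. Without the replicate block for day it was 6, and no marker's call over all genes changed, while the unadjusted p of Krt15 was 0.327, against 0.0102 with the block. For the slope per day the count was 0, and 0 to 130 when a scar was left out. For the difference in slope it was 0 in all 4 settings run. Of 70 alternative values of the difference between high and low, 6 changed sign, all 6 with a pair left out. Those ranges were -0.10 to 0.13 for Cd34, -0.12 to 0.20 for Sox9, -0.018 to 0.068 for Nfatc1, -0.41 to 0.060 for Plet1 and -0.31 to 0.0073 for Tbx1. Without the day 9 pair the signs of Sox9, Nfatc1 and Tbx1 changed. Of 90 alternative slopes 4 changed sign, with ranges of -0.048 to 0.013 for Lgr6 and -0.017 to 0.014 for Nfatc1 when a scar was left out. The cause was not tested, beyond the smaller number of samples. With 3 pairs and no second array per sample, differences of the size seen here may be missed.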
